A study of Mus musculus with 7 samples.

Results

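Hotspots of nuclease cleavage were examined at 10 genes of the major histocompatibility complex (MHC) and antigen presentation in mouse liver. The members were chosen by name and function, and comprised 5 class I pathway genes (H2-K1, H2-D1, B2m, Tap1 and Tap2) and 5 class II pathway genes (H2-Aa, H2-Ab1, H2-Eb1, Cd74 and Ciita), of 22365 genes with protein-coding transcripts in the annotation. All hotspots that overlapped a gene body or the 20 kb on either side were taken, which gave 36 of 60910 Benzonase hotspots, 37 of 57675 Cyanase hotspots and 44 of 72286 DNase I hotspots. A hotspot is a stretch of the genome in which cleavage tags cluster above background, and it is read as accessible chromatin. Hotspots of different lists that overlapped by at least 1 bp were merged, which placed 49 of 94491 regions in the windows of the members, 26 in class I and 23 in class II windows.

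All libraries came from liver of male C57BL/6 mice 8 weeks of age. Benzonase and Cyanase, endonucleases that stay active in detergent, were each applied to powder of frozen liver in amounts of 0.25, 1 and 4 U, with 1 library at each amount, and DNase I was used on nuclei purified from fresh liver, for which the labels list 1 library and the header of the list names 2 pooled libraries. The tags of each nuclease were pooled by the authors before hotspots were called, so 1 list per nuclease was compared, with no spread between replicates and no tag number for any hotspot. Nuclease and starting material (frozen tissue or fresh nuclei) changed together between DNase I and the other lists and cannot be told apart.

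MHC class I molecules pair a heavy chain with beta-2 microglobulin and show peptides from the cell interior to cytotoxic T cells, and nearly every nucleated cell makes them. Class II molecules are alpha and beta chain pairs that show peptides from engulfed material to helper T cells, and they are made mainly by dendritic cells, macrophages and B cells, which in liver lie among a majority of hepatocytes. Promoters of both classes carry a conserved module that ends in a Y box, an inverted CCAAT sequence bound by NF-Y, and class II transcription depends on the coactivator encoded by Ciita.

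The promoter sequences of 7 members are shown because they are the stretches that were accessible at the class I chains, B2m and the class II chains, and not at Ciita. Each is 300 bases of mm9, with 250 bases before a protein-coding start and 50 bases from the start base on, read 5′ to 3′ along the gene. Capitals mark matches on either strand. CTGATTGG holds the inverted CCAAT of a Y box when read in this direction, and it reads CCAATCAG along H2-K1 and H2-D1. Also marked are the interferon regulatory factor core AANNGAAA, the STAT element TTCNNNGAA and the E box CACGTG. The positions are chr17:34137229-34137528 on the minus strand for H2-K1, chr17:35399789-35400088 on the plus strand for H2-D1 (its downstream start at 35400039), chr2:121973172-121973471 on the plus strand for B2m, chr17:34424723-34425022 on the minus strand for H2-Aa, chr17:34399904-34400203 on the plus strand for H2-Ab1, chr17:34442578-34442877 on the plus strand for H2-Eb1, and chr16:10489626-10489925 on the plus strand for the start of Ciita at 10489876.
H2-K1: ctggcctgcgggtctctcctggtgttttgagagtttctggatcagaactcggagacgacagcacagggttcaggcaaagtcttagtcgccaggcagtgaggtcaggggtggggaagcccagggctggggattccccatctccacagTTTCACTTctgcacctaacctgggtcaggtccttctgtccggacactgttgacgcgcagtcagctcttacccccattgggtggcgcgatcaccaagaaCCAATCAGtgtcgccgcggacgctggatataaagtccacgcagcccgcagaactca
H2-D1: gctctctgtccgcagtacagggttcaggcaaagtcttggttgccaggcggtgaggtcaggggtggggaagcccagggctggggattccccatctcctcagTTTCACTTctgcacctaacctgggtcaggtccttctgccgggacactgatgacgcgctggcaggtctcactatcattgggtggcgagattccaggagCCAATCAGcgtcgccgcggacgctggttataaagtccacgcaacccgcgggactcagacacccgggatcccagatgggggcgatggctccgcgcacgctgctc
B2m: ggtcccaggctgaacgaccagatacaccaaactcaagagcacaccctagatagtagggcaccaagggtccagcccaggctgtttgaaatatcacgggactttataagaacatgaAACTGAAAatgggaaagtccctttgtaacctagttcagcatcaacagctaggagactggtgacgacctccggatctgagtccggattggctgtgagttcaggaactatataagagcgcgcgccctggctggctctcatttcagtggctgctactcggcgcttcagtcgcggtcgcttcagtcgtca
H2-Aa: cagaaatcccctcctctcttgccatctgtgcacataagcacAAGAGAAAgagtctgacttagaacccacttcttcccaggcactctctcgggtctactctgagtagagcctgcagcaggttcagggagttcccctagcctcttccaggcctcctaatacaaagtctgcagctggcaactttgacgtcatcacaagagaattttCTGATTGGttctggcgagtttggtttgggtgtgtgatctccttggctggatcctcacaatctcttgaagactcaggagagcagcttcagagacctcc
H2-Ab1: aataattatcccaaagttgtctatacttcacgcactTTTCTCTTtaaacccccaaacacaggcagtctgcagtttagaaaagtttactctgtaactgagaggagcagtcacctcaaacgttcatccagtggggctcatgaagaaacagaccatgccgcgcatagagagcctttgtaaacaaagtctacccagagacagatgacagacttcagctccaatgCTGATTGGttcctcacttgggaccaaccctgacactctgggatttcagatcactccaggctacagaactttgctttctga
H2-Eb1: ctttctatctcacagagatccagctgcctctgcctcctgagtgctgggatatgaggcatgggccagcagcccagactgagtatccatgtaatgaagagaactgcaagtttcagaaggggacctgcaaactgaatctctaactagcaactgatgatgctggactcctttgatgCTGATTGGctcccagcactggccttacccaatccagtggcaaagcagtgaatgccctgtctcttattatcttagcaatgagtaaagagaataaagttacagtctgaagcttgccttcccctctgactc
Ciita: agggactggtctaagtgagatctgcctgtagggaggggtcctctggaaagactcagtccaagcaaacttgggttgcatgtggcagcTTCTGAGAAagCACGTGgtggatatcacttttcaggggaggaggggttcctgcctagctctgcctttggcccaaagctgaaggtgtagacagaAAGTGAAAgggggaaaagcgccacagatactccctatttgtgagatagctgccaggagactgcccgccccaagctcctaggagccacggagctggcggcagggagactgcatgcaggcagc

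CTGATTGG lay in at least 1 promoter window of 6 of the 10 members and, counted the same way, of 5.65% of the 22365 genes (4.21% of the 45969 single windows). The 6 were both class I heavy chains, Tap1 and all 3 class II chains. It began 6 bases before the outermost start of H2-K1 and 50 to 82 before its other protein-coding starts. At H2-D1 it began 53 bases before the downstream start. For the outermost starts of the others, the distance was 219 bases at Tap1, 47 at H2-Aa, 30 at H2-Ab1 and 78 at H2-Eb1. Along the gene the match read CTGATTGG, with an inverted CCAAT, at all 3 class II chains. At H2-K1, H2-D1 and Tap1 it read CCAATCAG, a CCAAT that is not inverted. An inverted CCAAT, left in small letters, lay 30 bases before the outermost start of H2-K1 and 76 before the downstream start of H2-D1. Which match is the Y box of a class I promoter was not tested. CCAAT alone was far more common than CTGATTGG, in 9 members and 46.9% of genes. CTGATTGG was not found in the windows of B2m, Tap2, Cd74 and Ciita, which says nothing about variants of the Y box (B2m has an inverted CCAAT 52 bases before its start). AANNGAAA was matched in 9 members and in 32.9% of genes. GGGANTTCC, a kappa B element, was matched in H2-Aa and Cd74 (2.70% of genes), and GGGCGG, a GC box, in 6 members (50.8% of genes). The letters GGGANTTCC do not match ggggattcccc in the H2-K1 and H2-D1 sequences above, and variants of the kappa B element were not counted.

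The promoter window of Ciita shown above held TTCNNNGAA 164 bases, CACGTG 153 bases and AANNGAAA 71 bases before the start. TTCNNNGAA was in a window of 11.8% and CACGTG of 10.7% of genes, and of the members CACGTG was matched at Ciita alone and TTCNNNGAA at Ciita and the outermost start of H2-D1. An interferon-responsive Ciita promoter with a STAT element, an E box and an IRF element is textbook knowledge. The sequence was present in a stretch where none of the 3 nucleases gave a hotspot.

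At least 1 protein-coding transcription start site (TSS) lay inside a hotspot for 8 of the 10 members with each nuclease (95% Wilson interval 49.0 to 94.3%, counting error only). The background over all genes was 57.4% for Benzonase, 55.7% for Cyanase and 47.4% for DNase I. The same 8 members were called in all 3 lists, which held for 46.1% of all genes, and Tap2 and Ciita in none, which held for 40.9% of all genes. The Benzonase and Cyanase backgrounds were within the interval of the members and the DNase I background was just below it, so 10 genes gave at most a narrow margin over the share of all genes. Class I and class II had the same count, 4 of 5 with every nuclease. When hotspots narrower than the median of their list were left out, class I stayed at 4 and class II fell to 1 with every nuclease. The class II gene left was H2-Eb1 with Benzonase and DNase I and H2-Ab1 with Cyanase. The Benzonase cut was 652 bp, with H2-Ab1 (646 bp) and H2-Aa (636 bp) just under it and Cd74 (450 bp) well under. The share of all genes under this cut was not computed.

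All 10 members had a hotspot in the gene body or 20 kb either side with every nuclease, where 82.2% of all genes had one with Benzonase, 80.7% with Cyanase and 79.3% with DNase I. The map of the hotspots by distance from the outermost start of each gene shows that the 3 lists placed most of them at the same sites.

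**Figure D1:**
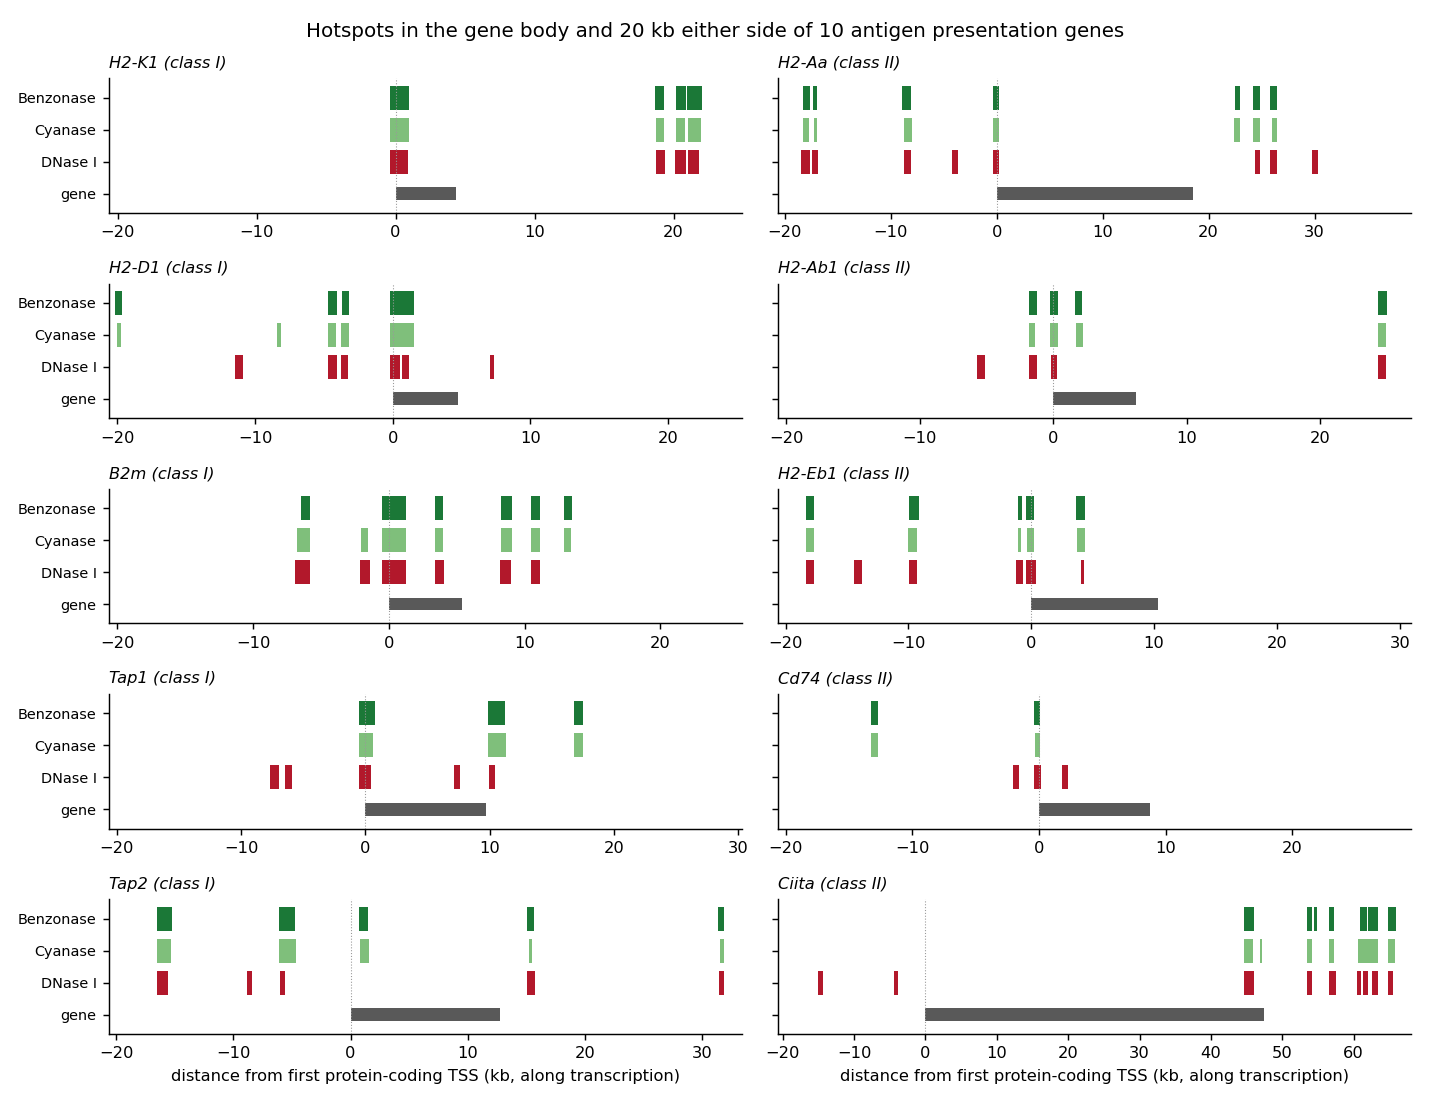
Each panel shows 1 gene, with bars for the hotspots of Benzonase, Cyanase and DNase I and a grey bar for the gene body, by distance in kb from its outermost protein-coding start, counted along transcription. Bars cross the start in 8 panels and in none of the lists for Tap2 and Ciita, whose hotspots lie elsewhere in the window.

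H2-K1 (ENSMUSG00000061232.8, chr17:34132962-34137278, minus strand) encodes a classical class I heavy chain. Each nuclease gave 4 hotspots in its window. The hotspot over its starts was 1419 bp wide with Benzonase, 1345 bp with Cyanase and 1318 bp with DNase I, and all 6 annotated protein-coding starts lay inside it in each list. The stretch was nearly the same in the 3 lists, with 92.9% of the joint length shared between Benzonase and DNase I. It reached over exon 1, the whole 270 bp of exon 2 and 132 to 205 of the 276 bp of exon 3, which encode the leader and the peptide-binding domains. The remaining hotspots of this gene lay 18624 to 20919 bp from its nearest start, beyond its 3′ end, in a group of 3 regions found by all 3 nucleases (chr17:34115239-34116283, chr17:34116361-34117183 and chr17:34117923-34118578). No protein-coding gene is annotated there.

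H2-D1 (ENSMUSG00000073411.4, chr17:35399675-35404444, plus strand), the other classical heavy chain, had 4 Benzonase, 5 Cyanase and 6 DNase I hotspots in its window. Of its 3 protein-coding starts, the outer 2 lay in a hotspot of each list and the internal one at 35402966 in none. Over the outer starts, Benzonase and Cyanase gave 1 stretch of 1760 and 1741 bp. DNase I gave a narrower hotspot of 744 bp over these starts and a separate one of 555 bp (chr17:35400332-35400886) inside the body of the gene, both within the single Benzonase stretch. Benzonase and Cyanase thus covered exons 2 and 3 in full, while DNase I covered 262 of the 270 bp of exon 2 and 103 of the 276 bp of exon 3. A pair of regions upstream, at chr17:35394948-35395631 and chr17:35395926-35396512, was found by all 3 nucleases, 4044 and 3163 bp from the nearest start. Farther upstream, Cyanase alone gave a 339 bp region 8096 bp away, DNase I alone gave a region over an exon of Ddx39b, and Benzonase and Cyanase marked the start of Ddx39b. Past the 3′ end, DNase I alone gave a region of 306 bp (chr17:35406725-35407030). Class I heavy chains have near-identical copies in the H2-D, H2-Q and H2-T regions, and the study counts its depth in uniquely aligning tags, so hotspots at H2-K1 and H2-D1 are uncertain where copies are alike.

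B2m (ENSMUSG00000060802.8, chr2:121973422-121978819, plus strand) encodes the light chain of every class I molecule. Its window held 6 Benzonase, 7 Cyanase and 6 DNase I hotspots. The hotspot over its single start was 1748, 1729 and 1749 bp wide, and any pair of lists shared between 98.0 and 98.9% of the joint length. It was wider than 94.3% of all DNase I hotspots over a start, against 79.6% with Benzonase and 83.1% with Cyanase. Its width therefore did not fall with DNase I as the median width over all genes did. The stretch held no CpG island, unlike those of the heavy chains, and had a GC content of 50.1 to 50.3%. A region 1413 bp upstream (chr2:121971319-121972009) was found by DNase I and Cyanase and not by Benzonase. It had the lowest GC content of the 49 regions, 39.8%, and 7 matches to AANNGAAA. How often regions of like width and GC content hold as many matches was not computed. Inside the gene, all 3 nucleases marked a region over the 29 bp of exon 3 and 74 to 96 of the 279 bp of exon 2. Farther regions lay in introns of Patl2 and near the start of Trim69, and the Trim69 start itself was found by Benzonase and Cyanase without DNase I.

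Tap1 and Tap2 encode both subunits of the transporter that carries peptides to class I molecules. Tap1 (ENSMUSG00000037321.9, chr17:34324498-34334170, plus strand) shares a bidirectional promoter with Psmb9, an immunoproteasome subunit gene, and the hotspot at its 5′ end covers the start of Psmb9 as well, so that the promoters of the pair cannot be told apart. The window of Tap1 held 3 Benzonase, 3 Cyanase and 5 DNase I hotspots. The hotspot covered 2 of its 3 protein-coding starts, not the internal one at 34327697, and was 1296 bp wide with Benzonase, 1161 bp with Cyanase and 930 bp with DNase I. DNase I alone also gave regions at chr17:34316802-34317577 and chr17:34318038-34318602, nearest to Psmb9, and at chr17:34331611-34332070 over exon 11 of 12 of Tap1. Just past the 3′ end of Tap1, all 3 lists had a hotspot at the start of Psmb8, another immunoproteasome subunit gene, 1418, 1411 and 495 bp wide.

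Tap2 (ENSMUSG00000024339.6, chr17:34340472-34353266, plus strand) had 5 hotspots per list in its window and none over a protein-coding start. The nearest Benzonase and Cyanase hotspots ended 50 and 31 bp before the third protein-coding start, and formed the region chr17:34341235-34342014, which DNase I did not find. This region covered 334 of the 1097 bp of exon 1 of the longest transcript, held a CpG island and had a GC content of 60.1%. The nearest DNase I hotspot was 5554 bp away, at the start of Psmb8. Tap2 was called for Benzonase and Cyanase when starts of all annotated transcripts were counted, and it was not called for DNase I under that count.

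Among class II genes, H2-Aa (ENSMUSG00000036594.7, chr17:34406276-34424772, minus strand) encodes the alpha chain of I-A, and its window held 7 Benzonase, 7 Cyanase and 8 DNase I hotspots, several of them shared with the windows of H2-Ab1 and H2-Eb1. The hotspot over its 3 protein-coding starts was 636, 594 and 584 bp wide with Benzonase, Cyanase and DNase I. All 3 lists marked almost the same stretch, with 91.3 to 98.3% of the joint length shared between pairs. Upstream, a region 8004 bp from the start (chr17:34432776-34433660) was found by all 3 nucleases, 620 to 798 bp wide, and one at 3641 bp (chr17:34428413-34429010) by DNase I alone. No hotspot lay elsewhere inside the gene body.

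H2-Ab1 (ENSMUSG00000073421.4, chr17:34400154-34406363, plus strand), the beta chain partner of H2-Aa, had 4 hotspots per list in its window. Over its starts the hotspot was 646, 647 and 462 bp wide with Benzonase, Cyanase and DNase I. A region 1180 bp upstream (chr17:34398334-34398974) was found by all 3 nucleases and held a further CTGATTGG, which was in 2.66% of the 20475 regions within 10% of its width. Away from member starts, the letters were also in 3 class I regions, 1 of the group beyond the 3′ end of H2-K1 (2.73% of regions of like width), 1 in Patl2 (6.29%) and 1 at the start of Trim69 (2.39%). DNase I alone gave a region 5143 bp upstream (chr17:34394452-34395011, GC content 42.3%). Benzonase and Cyanase without DNase I gave chr17:34401786-34402363, which held a CpG island and, at 67.5%, had the highest GC content of the 49 regions. It lay over exon 2, where Benzonase covered 193 and Cyanase 145 of 273 bp.

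H2-Eb1 (ENSMUSG00000060586.8, chr17:34442828-34453144, plus strand) encodes the beta chain of I-E, with 5 Benzonase, 5 Cyanase and 6 DNase I hotspots in its window. The hotspot over its starts was 685, 608 and 820 bp wide, so that here DNase I gave the widest of the 3. A small region 637 bp upstream (chr17:34441610-34442191) was also found by all 3 nucleases. Inside the gene, chr17:34446480-34447231 was found by all 3, with a CpG island and a GC content of 57.2%, but the lists differed within it. Benzonase covered all 270 bp of exon 2 and Cyanase 258 bp, whereas the DNase I hotspot of 312 bp began 31 bp past the end of the exon.

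Exon 2, which encodes a peptide-binding domain in the 5 MHC chains among the members, was thus in hotspots of Benzonase and Cyanase at H2-K1, H2-D1 and H2-Eb1, in part at H2-Ab1, and in no list at H2-Aa. With DNase I it was in the start hotspot at H2-K1 and in no hotspot at H2-Ab1 and H2-Eb1. At H2-D1 it was outside the DNase I start hotspot, but 262 of its 270 bp were in the separate hotspot inside the gene. This comparison of exons was chosen after the positions had been seen.

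Cd74 (ENSMUSG00000024610.8, chr18:60963502-60972300, plus strand) encodes the invariant chain that escorts class II molecules. It had the fewest hotspots of the members, 2 with Benzonase, 2 with Cyanase and 3 with DNase I. The hotspot over its starts was 450, 359 and 566 bp wide, narrower than those of nearly all genes (2.20, 1.16 and 7.64% of start hotspots were narrower still). The other regions differed fully between nucleases. DNase I alone gave chr18:60961424-60961957, 1545 bp upstream, and chr18:60965299-60965796 in an intron, with GC contents of 45.1 and 46.2%. Benzonase and Cyanase without DNase I gave chr18:60950236-60950787, 12715 bp upstream, with a GC content of 67.0%.

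Ciita (ENSMUSG00000022504.8, chr16:10480237-10527657, plus strand) encodes the class II transactivator. Its window held 7 Benzonase, 6 Cyanase and 9 DNase I hotspots, none at any of its 5 protein-coding start positions. The nearest Benzonase and Cyanase hotspots were 27157 and 27230 bp from any of these starts, outside the window, and the nearest DNase I hotspot was 3809 bp away (chr16:10475819-10476428). That region and another DNase I region 14403 bp upstream (chr16:10465211-10465834) were the only ones on the 5′ side. All other hotspots of the window lay at the 3′ end. A region found by all 3 nucleases covered the 97 bp of exon 18 and part of the last exon (chr16:10524808-10526332), and Cyanase alone gave a 302 bp region in the last exon (chr16:10527099-10527400). The rest lay in introns of Dexi and at the starts of Dexi and Clec16a, neighbouring genes. Of the 9 regions in the window of Ciita, 2 lay over the starts of these neighbours and 2 over its own exons.

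Among the 8 members with one, the hotspot over the start was wider at class I than at class II genes with Benzonase and Cyanase. With Benzonase, the 4 class I members spanned 1296 to 1760 bp (median 1583.5 bp) and the 4 class II members 450 to 685 bp (median 641 bp), with no overlap. With Cyanase the ranges were 1161 to 1741 bp (median 1537 bp) and 359 to 647 bp (median 601 bp), again with no overlap. With DNase I they were 744 to 1749 bp (median 1124 bp) and 462 to 820 bp (median 575 bp), and H2-D1 fell below H2-Eb1. The DNase I start hotspot of H2-D1 ended at 35400215, and the separate one of 555 bp began at 35400332 and was not counted in the width. Widths with nearby hotspots joined were not computed. Over all genes with a hotspot at a start, the median was 1257 bp with Benzonase (quartiles 960 and 1643 bp), 1166 bp with Cyanase (881.5 and 1538 bp) and 858 bp with DNase I (693 and 1149.5 bp). The class II members were under the lower quartile in every case but 1, H2-Eb1 with DNase I. The wider pathway lists showed a smaller or opposite difference, with median widths of 1418, 1363 and 860 bp for class I and 1239, 1401 and 927.5 bp for class II (Benzonase, Cyanase, DNase I). Most class II genes behind these medians encode transcription factor subunits, with Benzonase widths of 1059 to 2107 bp. The others were Lgmn (1034 bp) and, under the lower quartile, H2-DMa (886 bp) and H2-DMb1 (299 bp). Class I chain genes such as H2-T22 (778 bp), H2-Q2 (808 bp) and H2-T23 (834 bp) had narrow Benzonase hotspots over their starts. Class I member hotspots had a GC content of 50.1 to 64.4%, and those of H2-K1, H2-D1 and Tap1 held a CpG island, while those of class II had 47.3 to 55.2% and no island. Whether the GC content has a part in the widths was not tested, and with 1 pooled list per nuclease the difference has no replicate check.

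**Figure D2:**
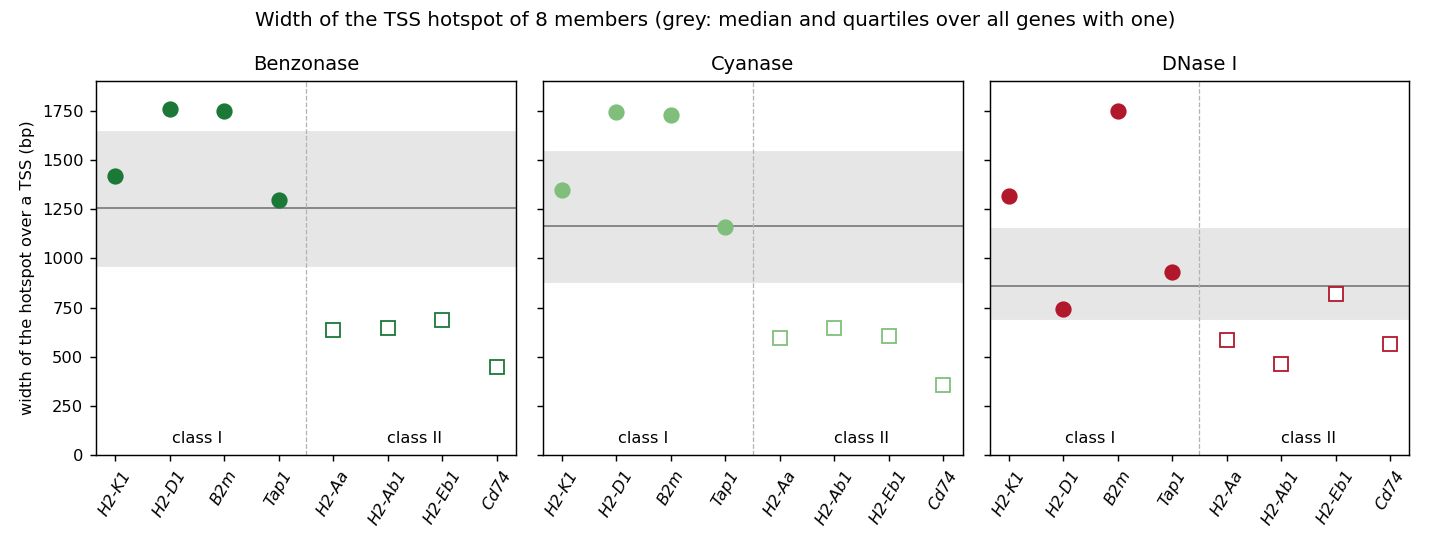
Width in bp of the hotspot over a protein-coding start, for 8 members and each nuclease (filled circles, class I; open squares, class II), with the median (line) and quartiles (band) over all genes. The class I points lie between 744 and 1760 bp and the class II points between 359 and 820 bp.

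The windows of both classes held more hotspots per length than those of the typical gene. Overlapping windows were joined within a class, giving 203.254 kb for class I and 229.211 kb for class II. Class I windows had 9.35 hotspots per 100 kb with Benzonase, 10.3 with Cyanase and 11.3 with DNase I. Class II windows had 7.42, 6.98 and 9.16, lower with every nuclease. Counted per gene and not per length, the order was not the same. The median number of hotspots in a window was 4, 5 and 5 for class I and 5, 5 and 6 for class II. With 50 kb on either side the DNase I values were 8.35 and 8.31, which left no difference for that nuclease. The median over all genes was 3.83, 3.61 and 4.24, with upper quartiles of 7.34, 7.06 and 8.16. That background takes each gene with its own window, whereas the class values come from joined windows. The share of the window covered by hotspots was 8.21, 8.28 and 8.33% for class I and 5.67, 5.37 and 6.10% for class II. These windows also held starts of other genes (3 regions in class I and 2 in class II windows), and 14 of 26 class I and 16 of 23 class II regions had a member as the gene of the nearest start.

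Of the 26 class I regions, 17 were shared between DNase I and another nuclease (65.4%, 95% Wilson interval 46.2 to 80.6%), 5 were found by DNase I alone (19.2%, 8.51 to 37.9%) and 4 by Benzonase or Cyanase without DNase I (15.4%, 6.15 to 33.5%). Of the 23 class II regions, 13 were shared (56.5%, 36.8 to 74.4%), 6 were found by DNase I alone (26.1%, 12.5 to 46.5%) and 4 without DNase I (17.4%, 6.98 to 37.1%). The intervals of the classes overlapped for each kind of region, and a difference between class I and class II was not tested. The regions are neighbours in a few joined windows and not independent draws. Over all 94491 regions the shares were 45.4, 28.3 and 26.3%. The 4 regions of each class that covered a start of a member were found by all 3 nucleases. This was common for starts, since 46.1% of all genes had one in a hotspot of each list and 40.9% in none.

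**Figure D3:**
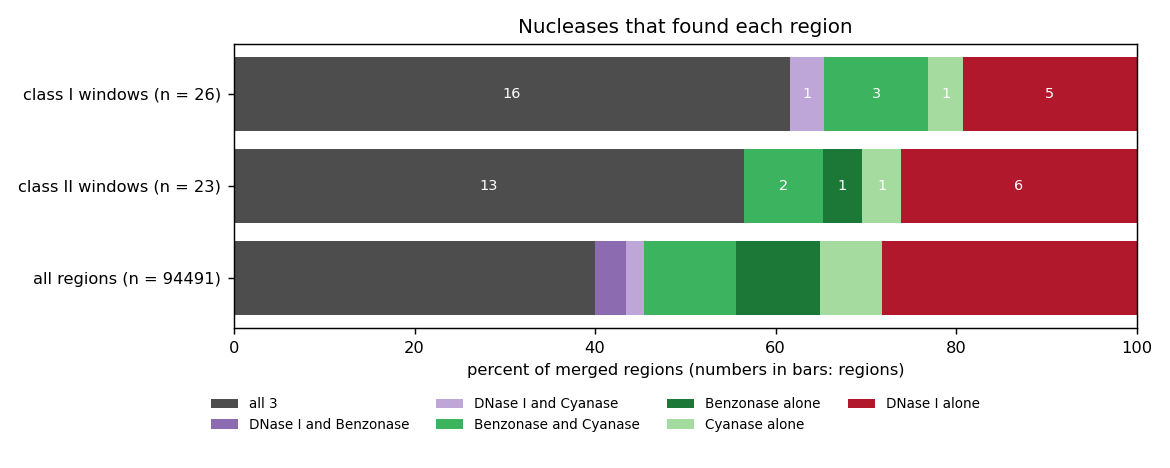
Percent of merged regions by the nucleases that found them, for the 26 class I regions, the 23 class II regions and all 94491 regions, with the number of regions in each bar segment of the members. All 3 nucleases found 16 class I and 13 class II regions, and DNase I alone found 5 and 6.

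Pooled over both classes, GC content rose from regions of DNase I alone to regions without DNase I, as over all regions. The 11 regions found by DNase I alone had a mean of 46.3% (SD 3.11), the 30 shared regions 52.2% (SD 5.98) and the 8 regions without DNase I 57.8% (SD 8.36). Over all regions the means were 42.3, 49.5 and 54.7%. The step from shared regions to those without DNase I came from class II (51.5 to 63.1%), and class I had nearly equal means (52.8 and 52.5%). No region found by DNase I alone held a CpG island, against 7 of 30 shared regions and 2 of 8 without DNase I. The ranges overlapped, since the 8 regions without DNase I ran from 41.7% at the start of Trim69 to 67.5% at exon 2 of H2-Ab1, and those of DNase I alone from 41.0 to 52.1%. Over all regions of a class the mean was nearly the same, 51.7% (SD 6.94) for class I and 52.0% (SD 6.90) for class II.

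**Figure D4:**
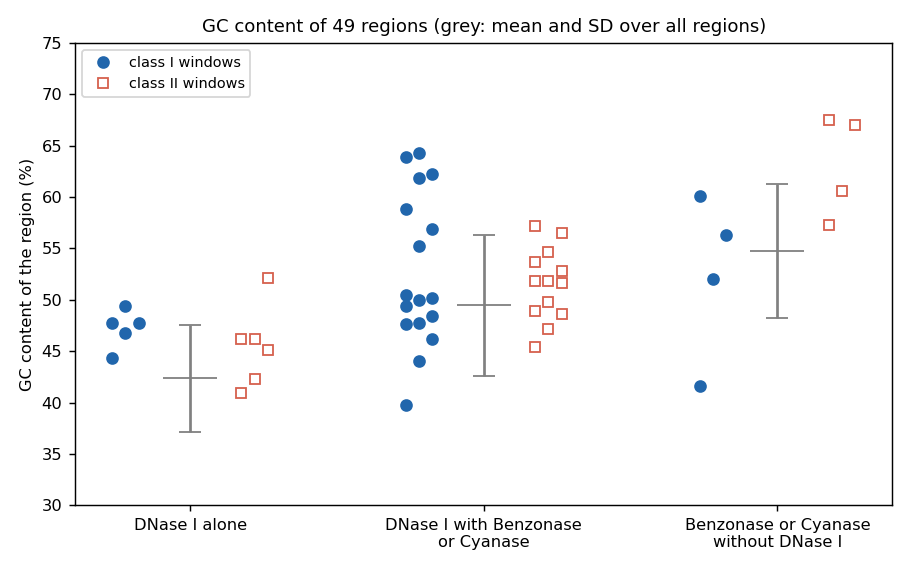
GC content in percent of each of the 49 regions (filled circles, class I; open squares, class II) by the nucleases that found it, with the mean and SD over all regions in grey. The 11 points of DNase I alone lie between 41.0 and 52.1%, and the 8 points without DNase I between 41.7 and 67.5%.

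Other genes of these pathways were read by role. Of 21 further class I pathway genes, 19 could be scored (H2-Q1 was not found under this symbol and Nlrc5 had no protein-coding transcript in the annotation). All 19 had a start in a hotspot of every nuclease, beside 46.1% of all genes, among them 9 heavy chain genes of the H2-Q, H2-T and H2-M families, which share near-identical sequence. Psmb9 was scored on the hotspot that it shares with the member Tap1, and the Psmb8 start lies in the windows of Tap1 and Tap2. These genes are therefore not independent of the members. Of 16 class II pathway genes, 10 had a start in a hotspot with Benzonase, 9 with Cyanase and 10 with DNase I (62.5, 56.3 and 62.5%, beside 57.4, 55.7 and 47.4% of all genes). The 6 with none in any list (37.5%, beside 40.9% of all genes) were close to that share, and comprised H2-Oa and H2-Ob (which encode the peptide exchange modulator H2-O), H2-DMb2 (a beta chain of the exchange factor H2-M), H2-Eb2 (a beta chain gene), Ctss (cathepsin S, which cuts the invariant chain) and Ifi30 (a lysosomal thiol reductase). H2-DMb1 had one with Benzonase (299 bp) and DNase I (503 bp) and not with Cyanase. H2-DMa, Lgmn (a lysosomal protease) and all 7 transcription factor subunit genes of the list, Rfx5, Rfxap, Rfxank, Nfya, Nfyb, Nfyc and Creb1, had one in all 3 lists. These factors are not particular to antigen presenting cells, in contrast to Ciita. Of 7 genes of the response to interferon gamma, which induces both classes, all were called with Benzonase and Cyanase and all but the receptor subunit gene Ifngr2 with DNase I.

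The powder and the nuclei came from whole liver with its mixed cell types, so fewer cells of a type and less accessibility per cell cannot be told apart. Over all genes, 57.4% were called with Benzonase, 55.7% with Cyanase, 47.4% with DNase I, 46.1% in all 3 lists and 40.9% in none. Beside these shares, counts from so few markers per cell type are weak. Starts of all 6 hepatocyte markers (Alb, Apoa1, Ttr, Cps1, Tat and Serpina1a) were in hotspots of every list. Of 5 Kupffer cell and macrophage markers, all were called with DNase I, but only Emr1 (the older symbol of Adgre1) with Benzonase and only Clec4f with Cyanase, while Cd68, Csf1r and Lyz2 were called with neither. None of 5 B cell or 4 T cell markers was called in any list, and of 4 dendritic cell markers only Zbtb46 was, with Benzonase and Cyanase. Stellate cell markers were called with Benzonase and Cyanase (3 of 3) and not with DNase I (0 of 3), and sinusoidal endothelial markers likewise for Kdr and Clec4g (2 of 4 against 0 of 4). H2-Aa, H2-Ab1, H2-Eb1 and Cd74 were thus called in all 3 lists while most macrophage markers were called with DNase I alone. The part of each cell type in the class II hotspots was not tested.

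**Figure D5:**
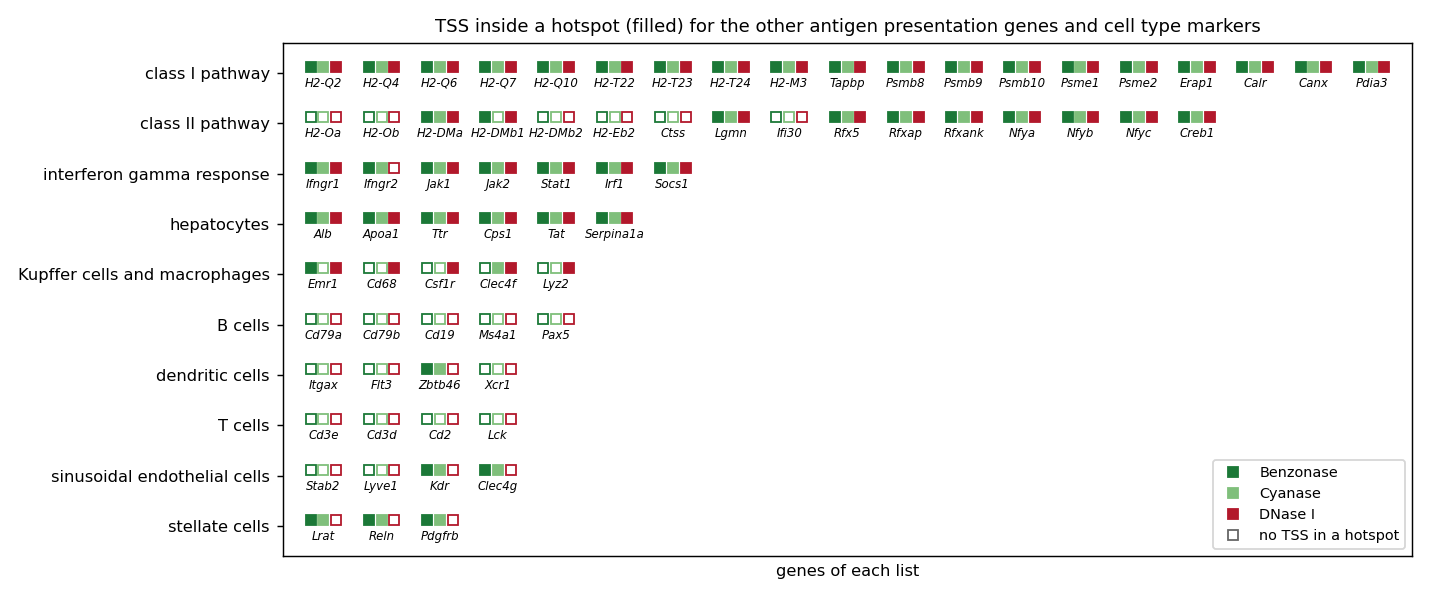
Genes of the wider lists and cell type markers, 1 column of 3 squares per gene (Benzonase, Cyanase and DNase I from left to right), filled where a protein-coding start lay in a hotspot. All 19 class I pathway genes are filled throughout, 6 of 16 class II pathway genes are open throughout, and the 5 macrophage markers are filled for DNase I.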

How the data were processed

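Sequenced tags were aligned by the authors to mm9 with Eland or Bowtie and pooled per nuclease. Per the paper, hotspots were taken at an FDR of 0%, the threshold on tag density lying at its mode. The paper reports fewer hotspots for each nuclease than these lists hold, so the lists are not the same set as the one it describes. Per the file headers the lists are input adjusted and unmerged. The deposited columns give hotspot positions without a count or score, so the tags behind a hotspot are unknown. Library depth, which the paper gives in uniquely aligning tags for Benzonase and Cyanase, was not used here. There were 0 columns of other samples. The labels list 3 Benzonase, 3 Cyanase and 1 DNase I libraries, the header of the DNase I list names 2 pooled ones, and values per library were not analysed here.

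Positions count from 1 on mm9 (NCBIM37) with GENCODE release M1, and the annotated entries named Ciita were joined. Regions and motifs were found as described with the results, and CpG islands were stretches of 200 bp or more with a GC content above 50% and a CpG ratio (observed against expected) above 0.6. Wilson intervals (95%) cover counting error only, and no test was run. Merging and islands were tested on simulated data. Members, lists and markers were chosen with earlier results of these data known. All members were named in full, and of the wider lists the genes that differed between nucleases or had no hotspot. Alternatives were other windows, overlaps, widths, transcripts and island definitions. Work was done in Python 3.11.15 with pandas 2.3.3 and numpy 2.4.6 for tables, numba 0.67.0 for islands, scipy 1.17.1 for intervals and matplotlib 3.10.9 for plots.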

Additional observations from a re-analysis of the deposited data

How the results depend on the processing

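Of 88 values recomputed under the alternatives, 14 moved. Changes in the order of the classes were not counted. The other 74 stayed within a factor of 1.5 (counts and hotspots per length), within the 95% Wilson interval of the share given, or within 1 SD (GC content). Keeping hotspots at least as wide as the median of their list left 1 of 5 class II members with a start in a hotspot with Benzonase, 1 with Cyanase and 1 with DNase I. It lowered the hotspots per 100 kb to 5.41, 5.90 and 6.89 in class I windows and to 3.93, 3.49 and 2.62 in class II windows (Benzonase, Cyanase, DNase I), and left 0% of class II regions to DNase I alone (0 of 9) and 33.3% without DNase I. With the gene body only, class I had 16.2, 16.2 and 18.9 hotspots per 100 kb, and 11.1% of class II regions were found by DNase I alone (1 of 9).

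Shares of few regions varied within those wide intervals. With 50 kb on either side, 23.4% of class I and 11.1% of class II regions were without DNase I, which turned the order of the classes, and 14.9% of class I regions were found by DNase I alone. With an overlap of 50% of both hotspots, 23.3% of class I and 19.2% of class II regions were without DNase I, which turned the order as well. For DNase I alone the order turned under 2 settings. Class I and class II had 18.8 and 0% with the wider hotspots, and 14.3 and 11.1% with the gene body only. Regions with an island of at least 500 bp numbered 4 in class I and 3 in class II, from 5 and 4. The class I count rose from 4 to 5 with Benzonase and Cyanase, through Tap2, when starts of all annotated transcripts were counted or a hotspot within 500 bp of a start was enough. Leaving out single libraries could not be run, because each list was called on pooled tags. No paired analysis was possible because the columns carry no replicate numbers and no result comes from a test. The tags behind each hotspot are unknown, so a missing hotspot is not shown to be closed chromatin.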
